A study of Mus musculus with 6 samples.

Results

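Genes of major histocompatibility complex (MHC) class I antigen presentation were examined in the livers of male mouse offspring aged 8 weeks. The list holds 10 genes, chosen by symbol: the class I heavy chains H2-K1, H2-D1 and H2-Q4, the light chain B2m, the peptide loading genes Tap1, Tap2 and Tapbp, the immunoproteasome genes Psmb8 and Psmb9, and the regulator Nlrc5. Of these, 9 were measured under a single gene name, out of 30718 genes so named on the array, each by 1 probe set. The probe set of Nlrc5 also lists another gene and was not used here. The HFD-inulin group comprised 3 livers, from offspring of mothers given inulin, a fermentable plant fibre, and the HFD group 3 livers, from offspring of mothers on a high-fat diet (HFD). The sample titles of the HFD-inulin group also carry HFD, so both groups may share that diet. None of the sources used here gives the mouse strain, the litter, the dose of inulin or the diet of the offspring themselves. Nothing states that the mice of a group had different mothers, so the spread between arrays may be partly shared or technical. All values are the authors' deposited log2 signals, 1 array per liver. Where 3 values of a group are given they are those of its replicates 1, 2 and 3, and 3 arrays a group limit the precision of each result.

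MHC class I molecules show peptides from inside the cell to CD8 T cells and are carried by nearly all nucleated cells, hepatocytes included. The proteasome cuts proteins into peptides, the TAP transporter moves them into the endoplasmic reticulum, and tapasin holds an empty class I molecule at that transporter until a peptide binds. Interferons raise the transcription of most genes of this pathway through IRF and STAT factors, and NLRC5 acts as its transactivator.

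The sequences upstream of the heavy chain genes, B2m and the gene pair Tap1 and Psmb9 are shown because the letters they share can be set beside the array values of those genes. RefSeq (GRCm38.p6) listed a promoter for 8 of the 10 genes, and 5 stretches are printed, 5′ to 3′, each lying directly before the annotated start of transcription. That start is the more upstream of 2 listed for H2-K1. The stretch between Tap1 and Psmb9 is 225 bases long, is written in the direction of Tap1 and fills the whole space between both starts, from which the genes run in opposite directions. The others are 250 bases long. Capitals mark the motif letters named after the sequences. They lie at chr17:34000348-34000597 on the minus strand (H2-K1), and on the plus strand at chr17:35262844-35263093 (H2-D1), chr17:35379367-35379616 (H2-Q4), chr2:122147437-122147686 (B2m) and chr17:34187331-34187555 (Tap1 to Psmb9).
H2-K1: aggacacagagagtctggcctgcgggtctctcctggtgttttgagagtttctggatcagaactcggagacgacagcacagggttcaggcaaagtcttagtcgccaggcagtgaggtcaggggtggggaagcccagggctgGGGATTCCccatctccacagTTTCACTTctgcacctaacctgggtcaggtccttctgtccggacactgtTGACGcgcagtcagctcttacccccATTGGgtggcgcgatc
H2-D1: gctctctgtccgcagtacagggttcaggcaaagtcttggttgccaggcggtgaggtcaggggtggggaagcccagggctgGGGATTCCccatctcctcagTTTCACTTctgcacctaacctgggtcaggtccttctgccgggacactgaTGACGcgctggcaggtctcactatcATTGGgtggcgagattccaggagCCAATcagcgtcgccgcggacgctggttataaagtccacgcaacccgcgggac
H2-Q4: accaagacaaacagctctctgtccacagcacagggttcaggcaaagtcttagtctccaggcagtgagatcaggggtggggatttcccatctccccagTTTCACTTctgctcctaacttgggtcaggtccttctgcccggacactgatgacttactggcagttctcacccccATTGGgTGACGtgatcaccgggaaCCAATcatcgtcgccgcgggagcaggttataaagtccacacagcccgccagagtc
B2m: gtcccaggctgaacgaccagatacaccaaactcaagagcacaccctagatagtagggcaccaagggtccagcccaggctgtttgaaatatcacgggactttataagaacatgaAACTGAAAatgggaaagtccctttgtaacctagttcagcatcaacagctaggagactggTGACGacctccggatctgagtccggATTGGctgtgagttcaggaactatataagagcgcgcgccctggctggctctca
Tap1 to Psmb9: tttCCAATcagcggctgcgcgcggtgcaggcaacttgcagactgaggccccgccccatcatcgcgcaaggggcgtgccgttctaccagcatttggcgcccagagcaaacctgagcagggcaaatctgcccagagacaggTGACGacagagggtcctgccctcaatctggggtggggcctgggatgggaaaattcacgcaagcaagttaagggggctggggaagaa

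Motifs were searched on both strands of the 250 bases upstream of a start, and no matches overlapped within a printed stretch. An interferon regulatory factor core (AANNGAAA) was found upstream of 4 of the 8 members with a promoter, against 21.3% of 32841 listed promoters. Those 4 were H2-K1, H2-D1, H2-Q4 and B2m. A CCAAT box (CCAAT), the element bound by NF-Y, was found in 7 of 8, against 33.9%. A half-site of the cAMP response element (TGACG) was found in 6 of 8, against 17.8%. For both motifs the matches of Tap1 and Psmb9 are the same site in the shared stretch, so each count holds 1 site counted for both genes. The kappa B core GGGATTCC was found upstream of H2-K1 and H2-D1, against 0.889% of promoters. Only those exact letters were searched, so kappa B sites with other letters, in H2-Q4 or B2m for example, would not be counted. The gamma-activated site TTCNNNGAA was found only upstream of Psmb8, against 7.02%. The 3 heavy chain stretches are close copies. H2-K1 matched H2-D1 at 161 of 177 aligned bases (91.0%) and H2-Q4 at 146 of 163 (89.6%), and H2-D1 matched H2-Q4 at 199 of 229 (86.9%). These are matches of letters and do not show that a factor binds there.

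The liver profile and the structure of the arrays are given first. Alb, the serum albumin gene, measured 11.37 to 11.55 in HFD-inulin and 11.55 to 11.58 in HFD arrays. Chromosome Y probe sets that share identical values split the arrays across the groups. The mean log2 signal of 245 of them was 1.91, 1.60 and 3.15 for HFD-inulin and 1.34, 3.24 and 2.99 for HFD. The comparison is therefore also given within each side of this split, HFD-inulin arrays 1 and 2 against HFD array 1, and HFD-inulin array 3 against HFD arrays 2 and 3. The labels name no batch, and the origin of the split is not known.

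All 9 measured genes had a lower mean in HFD-inulin than in HFD livers, by small amounts. The log2 differences ran from -0.24 for H2-Q4 to -0.03 for Psmb9, with a median of -0.13 (a change in signal of -8.66%). None of the 9 passed an adjusted p of 0.05 in limma, where 0 of all 65956 probe sets (0%) did. Lower means in HFD-inulin were also held by 56.5% of all probe sets, whose median difference was -0.02. Before adjustment limma placed 2 of the 9, H2-Q4 and Tapbp, past the 0.05 threshold, both lower in HFD-inulin, against 2.64% of probe sets lower and 5.15% in either direction. Neither passed with the array split as a block, with the replicate number as a block, after median centring, or when any array but HFD-inulin array 3 was left out. The groups did not overlap in 1 of 9, Tapbp, against 6.02% of probe sets apart and lower in HFD-inulin and 10.3% apart either way. The genes share known regulators and were measured in the same 6 arrays, so their shared direction is not 9 separate observations.

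**Figure D1:**
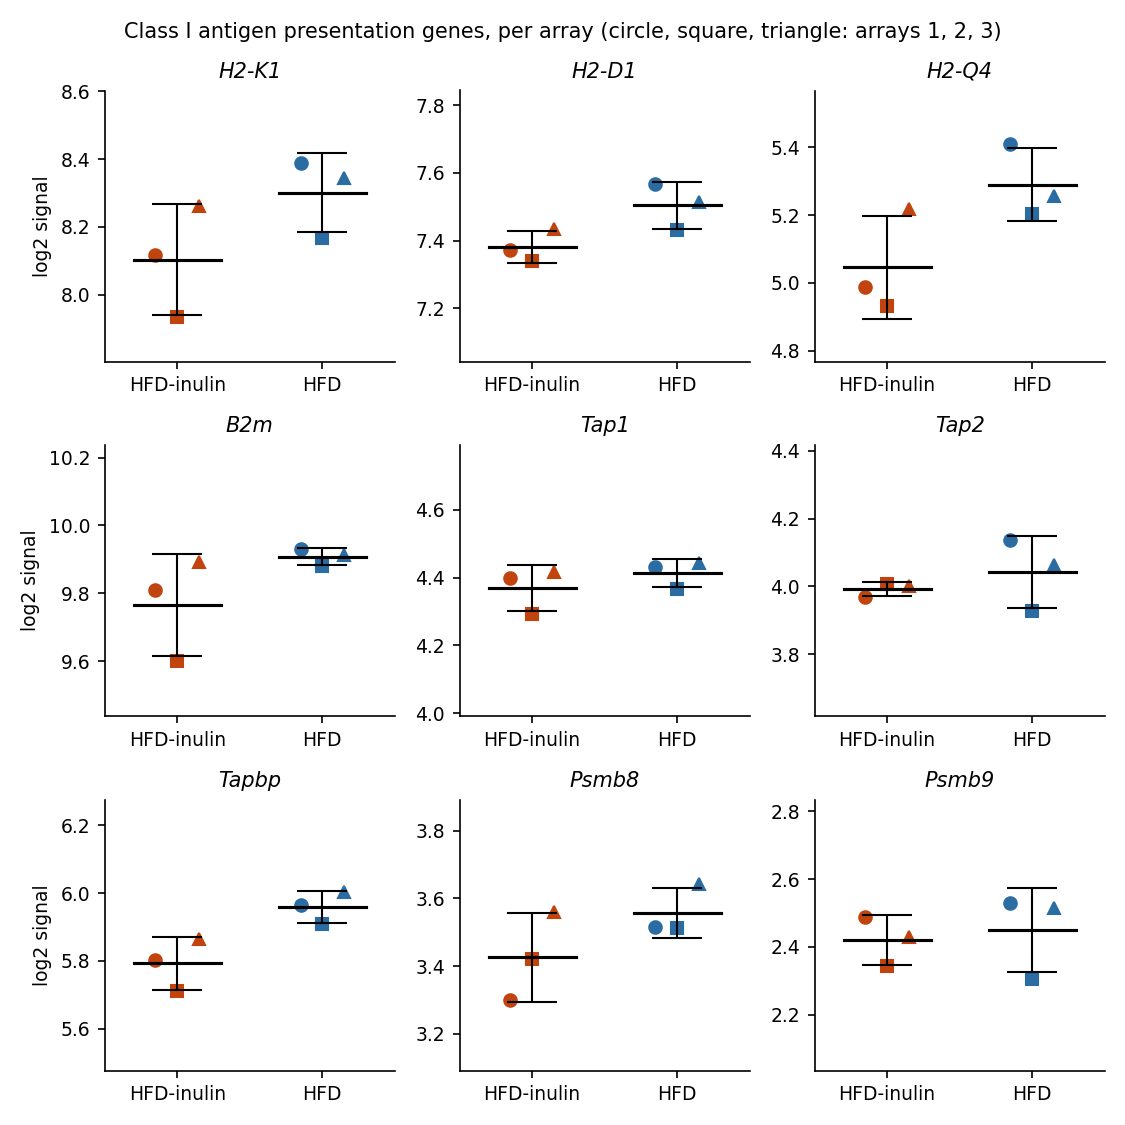
Log2 signal of each of the 9 genes in HFD-inulin (orange, left) and HFD (blue, right) arrays, 3 per group; horizontal lines are means and bars are SD. Every panel spans 0.8 log2 units around its own centre, and Tapbp is the one gene whose groups do not overlap.

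The class I heavy chains form the groove that holds the peptide. H2-K1, a classical heavy chain (probe set TC1700001892.mm.1), measured 8.12, 7.93 and 8.26 in HFD-inulin livers, against 8.39, 8.17 and 8.35 in HFD livers. HFD-inulin array 2 was lowest and HFD array 1 highest, and HFD-inulin array 3 lay above HFD array 2, so the groups overlapped. The means were 8.10 ± 0.16 and 8.30 ± 0.12 (SD, n = 3 each), a log2 difference of -0.20 (95% confidence interval -0.45 to 0.06, limma adjusted p = 0.902). With HFD-inulin array 2 left out it was -0.11. H2-D1, the other classical chain measured (TC1700002790.mm.1), had 7.37, 7.34 and 7.43 in HFD-inulin livers, against 7.57, 7.43 and 7.52 in HFD livers. Only HFD-inulin array 3 and HFD array 2 met, at the same value to 2 decimals, and the other HFD-inulin arrays lay below every HFD array. Its difference was -0.12 (-0.28 to 0.04, limma adjusted p = 0.902), and -0.25 after quantile normalization (limma adjusted p = 0.954).

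H2-Q4, a heavy chain of the Qa region (TC1700000684.mm.1), had the largest difference of the 9. It measured 4.99, 4.93 and 5.22 in HFD-inulin livers, against 5.41, 5.20 and 5.26 in HFD livers. HFD-inulin arrays 1 and 2 lay apart from all other arrays, while array 3 lay among the HFD values. The means were 5.05 ± 0.15 and 5.29 ± 0.11 (SD, n = 3 each), a difference of -0.24 (-0.48 to -0.01, limma adjusted p = 0.902), or a ratio of 0.844. Class I heavy chain genes are related in sequence. Probe sequences were not checked, so signal may be shared between H2-K1, H2-D1, H2-Q4 and unlisted relatives. The platform entry of the H2-D1 probe set carries a second gene ID.

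B2m encodes beta-2 microglobulin, the light chain that pairs with class I heavy chains. Its probe set (TC0200001838.mm.1) measured 9.81, 9.60 and 9.89 in HFD-inulin livers, against 9.93, 9.88 and 9.91 in HFD livers. The HFD arrays lay within a narrow band (SD 0.03), the HFD-inulin arrays were spread (SD 0.15), and array 2 alone was far below. The difference was -0.14 (-0.35 to 0.07, limma adjusted p = 0.902), and it was -0.06 with HFD-inulin array 2 left out. The 3 heavy chains and B2m, which carry the interferon regulatory factor core printed above, had differences of -0.12 to -0.24. In the 4 promoters without it the genes had differences of -0.17 (Tapbp), -0.13 (Psmb8), -0.04 (Tap1) and -0.03 (Psmb9), a range that overlaps the first.

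**Figure D2:**
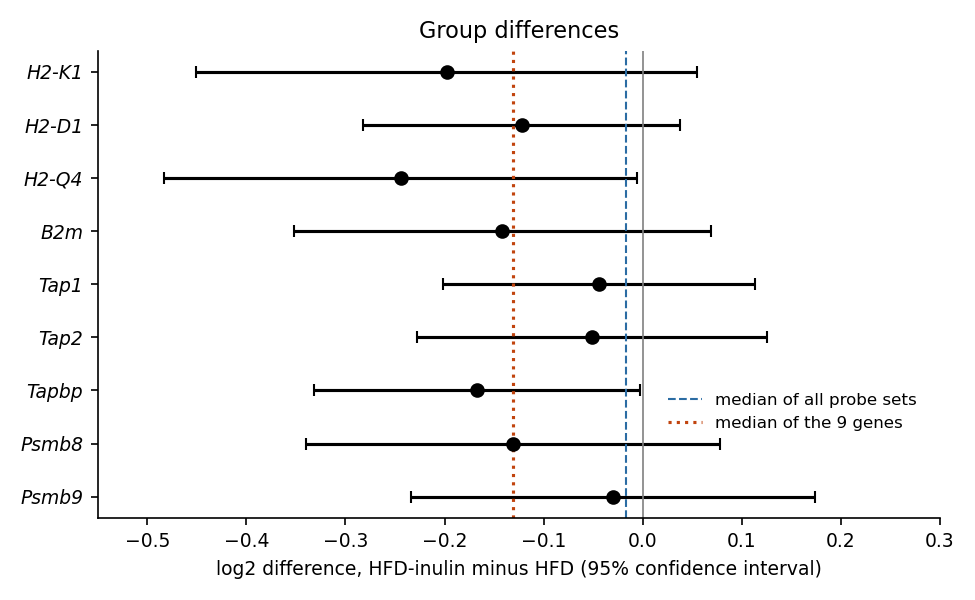
Log2 difference of each gene, HFD-inulin minus HFD, with its 95% confidence interval from limma (3 arrays per group); the dashed line is the median of all probe sets and the dotted line that of the 9 genes. All 9 points lie below 0, and the intervals of H2-Q4 and Tapbp alone end below it.

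The peptide loading genes differed in size. Tapbp, which encodes tapasin (TC1700002778.mm.1), measured 5.80, 5.71 and 5.86 in HFD-inulin livers, against 5.96, 5.91 and 6.004 in HFD livers. Every HFD-inulin value lay below every HFD value. The difference was -0.17 (SE 0.07, 95% confidence interval -0.33 to -0.003, limma adjusted p = 0.902), and the exact two-sided permutation p was 0.1, the smallest that 3 against 3 allows. Tap1 and Tap2 encode the subunits that together form the peptide transporter. Tap1 (TC1700000621.mm.1) measured 4.40, 4.29 and 4.42 in HFD-inulin livers, against 4.43, 4.37 and 4.44 in HFD livers. Tap2 (TC1700000623.mm.1) measured 3.97, 4.01 and 3.9999 in HFD-inulin livers, against 4.14, 3.93 and 4.06 in HFD livers. Both transporter genes overlapped widely between groups, with differences of -0.04 (-0.20 to 0.11) for Tap1 and -0.05 (-0.23 to 0.13) for Tap2 (limma adjusted p = 0.949 for each). Single arrays decided these values. Tap1 was at -0.0055 without HFD-inulin array 2. Tap2 was at -0.0035 without HFD array 1 and at -0.11 without HFD array 2.

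Psmb8 and Psmb9 encode catalytic subunits of the immunoproteasome, which take the places of constitutive subunits and favour peptides that fit class I grooves. Psmb8 (TC1700000622.mm.1) measured 3.30, 3.42 and 3.56 in HFD-inulin livers, against 3.52, 3.51 and 3.64 in HFD livers, a difference of -0.13 (-0.34 to 0.08, limma adjusted p = 0.905). Psmb9 (TC1700001902.mm.1) measured 2.49, 2.34 and 2.43 in HFD-inulin livers, against 2.53, 2.31 and 2.51 in HFD livers, a difference of -0.03 (-0.23 to 0.17, limma adjusted p = 0.970). Psmb8 was lowest in HFD-inulin array 1, without which its difference was -0.07, and Psmb9 was lowest in HFD array 2. The sign for Psmb9 turned to 0.0024 after median centring and 0.00032 after quantile normalization, so no direction is given for it. Psmb9 and Tap1, whose starts flank the printed stretch, had the smallest differences, but Tap2, which does not flank it, was close to Tap1 at -0.05. Without HFD array 1 Tap2 was at -0.0035 and Tap1 at -0.035, so this order changed with single arrays. Over the 9 genes the confidence limits ran from -0.48 to 0.17, which in signal is a change of -28.5% to 12.8%.

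**Figure D3:**
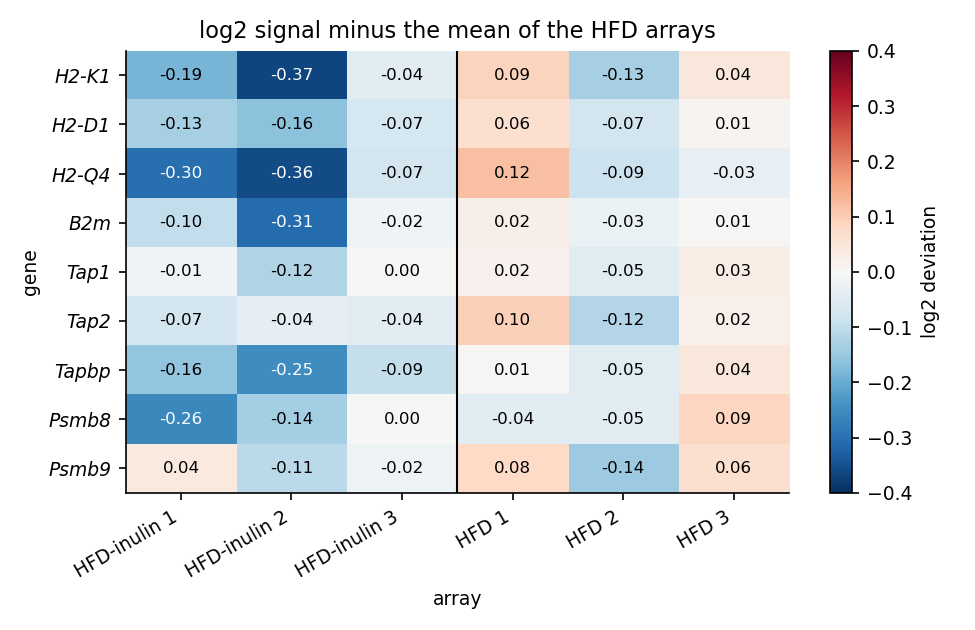
Log2 signal of each gene (rows) in each array (columns, HFD-inulin left of the line, HFD right) minus the mean of the 3 HFD arrays; blue is below and red above that mean. HFD-inulin array 2 is below the HFD mean for all 9 genes, and so is HFD array 2.

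Arrays of the same group differed for these genes. HFD-inulin array 2 was the lowest array for 6 of the 9 genes, HFD array 2 for 2 and HFD-inulin array 1 for 1. HFD array 1 was the highest for 6 and HFD array 3 for 3, so no HFD-inulin array was highest for any. Averaged over the 9 genes, the deviation from the HFD mean was -0.13, -0.21 and -0.04 in HFD-inulin livers, against 0.05, -0.08 and 0.03 in HFD livers. HFD array 2 lay below the HFD mean for all 9 genes and, on average, below HFD-inulin array 3. The whole range of a gene over the 6 arrays was 0.15 (Tap1) to 0.48 (H2-Q4) log2 units.

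The differences were larger on one side of the array split. Between HFD-inulin arrays 1 and 2 and HFD array 1, all 9 genes had the lower mean in HFD-inulin, and the median difference was -0.21 (all probe sets -0.02). There H2-Q4 was at -0.45, H2-K1 at -0.36, B2m at -0.23 and H2-D1 and Tapbp at -0.21. Between HFD-inulin array 3 and HFD arrays 2 and 3 the median was -0.01 (all probe sets 0.0027) and 5 of 9 were lower. H2-K1 was then at 0.0032, H2-Q4 and B2m at -0.01, H2-D1 at -0.04 and Tapbp at -0.09. Each side has a group with a single array, so no test was made, and the part of the split in the result was not tested.

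**Figure D4:**
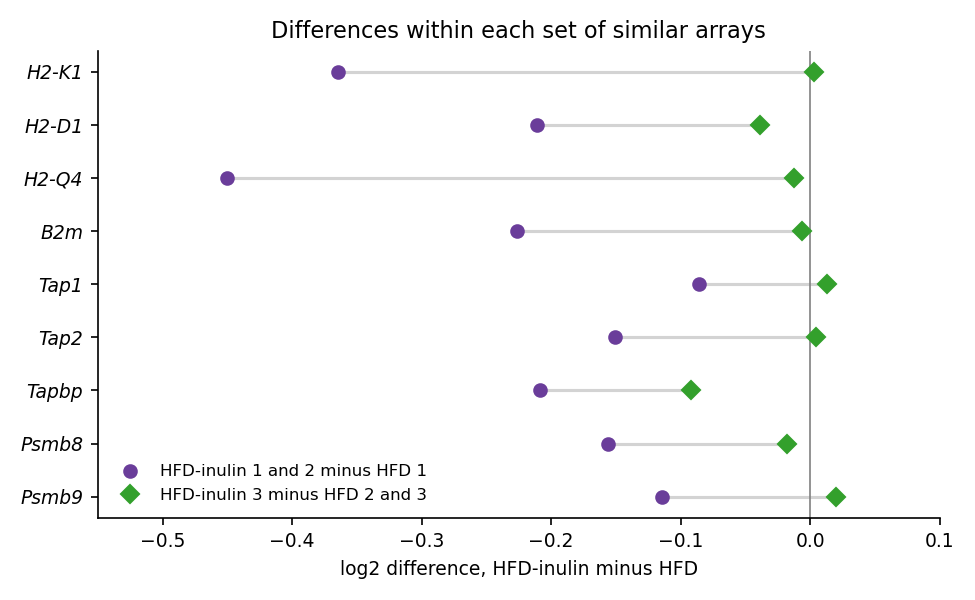
Log2 difference, HFD-inulin minus HFD, within each set of similar arrays: circles for HFD-inulin 1 and 2 minus HFD 1, diamonds for HFD-inulin 3 minus HFD 2 and 3. All circles lie below 0, while the diamonds run from -0.09 (Tapbp) to 0.02 (Psmb9).

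Another 8 lists hold genes of the pathway, its control, interferon-stimulated genes and MHC class II genes. Of their 87 measured genes, 38 had higher and 49 lower means in HFD-inulin. Interferon-stimulated genes gave 19 of the lower and 3 of the higher means, and MHC class II genes 9 and 1. Of the 87, 0 passed an adjusted p of 0.05 in limma. Before adjustment 10 of the 87 (11.5%) passed the 0.05 threshold, 5 higher and 5 lower in HFD-inulin, against 5.15% of all probe sets. Of the 5 lower, 4 were interferon-stimulated genes, as was 1 of the 5 higher. Of the other heavy chains and class I-like molecules, 8 of 13 were lower and 5 higher, with a median difference of -0.06. Mr1, which presents vitamin B metabolites to MAIT cells, measured 2.18, 2.16 and 2.29 in HFD-inulin livers, against 2.76, 2.53 and 2.66 in HFD livers. Those groups were apart, on both sides of the split (-0.59 and -0.30), with a difference of -0.44 (SE 0.08, limma adjusted p = 0.902). Fcgrt, the neonatal Fc receptor that recycles albumin and IgG and also pairs with B2m, had the opposite sign. It measured 7.87, 7.76 and 7.47 in HFD-inulin livers, against 7.36, 7.34 and 7.32 in HFD livers, a difference of 0.36 (SE 0.11, limma adjusted p = 0.902). H2-T24, a class I gene of the T region, had a difference of -0.23.

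Outside the 9, 11 of 13 trimming, loading and quality control genes had the higher mean in HFD-inulin (median difference 0.23). Their median level was 5.71. Of all genes at a mean log2 signal of 4 to 6 only 37.4% had the lower mean, and of those at 6 or more 32.2%. Higher means were thus common at such signals. Bcap31, a cargo receptor that escorts class I molecules out of the endoplasmic reticulum, measured 7.34, 7.49 and 7.32 in HFD-inulin livers, against 7.25, 7.11 and 7.11 in HFD livers, without overlap (difference 0.23, limma adjusted p = 0.902). Prkcsh, the beta subunit of glucosidase II, had a difference of 0.36 and Tapbpl, a tapasin homologue that edits bound peptides, one of 0.16. Relative to HFD, this list averaged 0.17, 0.54 and -0.03 in HFD-inulin livers, against 0.07, 0.03 and -0.10 in HFD livers. HFD-inulin array 2, the lowest for 6 of the 9 class I genes, had the highest average here. Most of these proteins serve all glycoproteins of the endoplasmic reticulum.

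The other proteasome genes also had higher means in HFD-inulin, as did most genes at a mean log2 signal of 4 or more. The constitutive catalytic genes Psmb6 and Psmb7, whose subunits Psmb9 and Psmb10 replace, were high in HFD-inulin arrays 1 and 2 only. Psmb7 measured 6.82, 6.88 and 6.20 in HFD-inulin livers, against 6.22, 6.10 and 6.10 in HFD livers (difference 0.49, SE 0.18, limma adjusted p = 0.902). Psmb6 had a difference of 0.48, at 0.77 within the first set of arrays and -0.08 within the second. Of the other immunoproteasome and activator genes 4 of 4 had higher means (median difference 0.11), among them the assembly factor gene Pomp (0.40), the immunoproteasome gene Psmb10 (0.14) and the activator gene Psme3 (0.07). Psmb10 was at -0.09 within the first set of arrays and 0.51 within the second. The difference of Psmb9 minus that of Psmb6 was -0.51 and that of Psmb10 minus that of Psmb7 was -0.35. As deviations from HFD, the first pair was at -0.75, -0.81 and 0.05 in HFD-inulin livers, against 0.10, -0.16 and 0.05 in HFD livers. The second pair was at -0.76, -0.72 and 0.42, against -0.03, -0.06 and 0.09. The exact two-sided permutation p was 0.2 for the first pair and 0.4 for the second, where 3 against 3 arrays cannot go below 0.1. These pairs were chosen after the values were seen, so the values are a description.

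**Figure D5:**
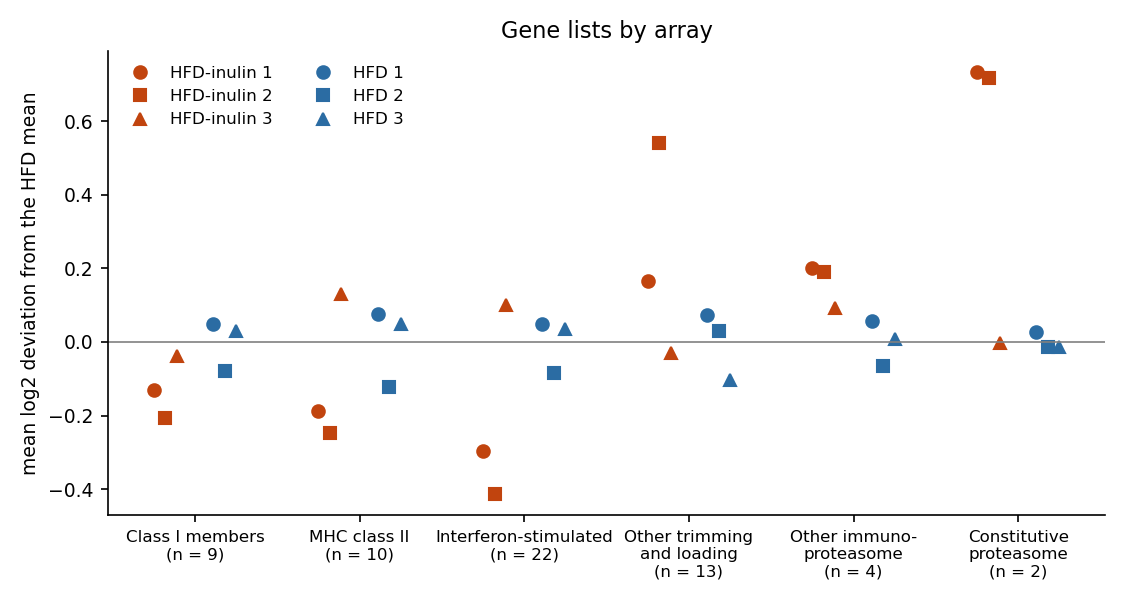
Mean over each gene list of the log2 signal minus the HFD mean, per array; orange marks are HFD-inulin and blue HFD arrays, with circle, square and triangle for arrays 1, 2 and 3, and n the number of genes. HFD-inulin arrays 1 and 2 lie below all other arrays for the 9 class I genes, the class II genes and the interferon-stimulated genes, and at 0.73 and 0.72 in the constitutive proteasome list.

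Interferon-stimulated genes and MHC class II genes are known, like class I, to respond to interferons. Of 22 interferon-stimulated genes 19 had the lower mean in HFD-inulin (median difference -0.14), against 56.5% of all probe sets with a lower mean. Before adjustment 4 lower and 1 higher passed the 0.05 threshold, against 2.64% of all probe sets lower and 5.15% in either direction. Rsad2, the antiviral enzyme viperin, measured 1.79, 1.73 and 2.52 in HFD-inulin livers, against 2.72, 2.66 and 2.75 in HFD livers (difference -0.70, limma adjusted p = 0.902). Ifit1, an antiviral RNA-binding protein, had a difference of -0.76, and Zbp1, a nucleic acid sensor, one of 0.43. As deviations from HFD, the list averaged -0.30, -0.41 and 0.10 in HFD-inulin livers, against 0.05, -0.08 and 0.03 in HFD livers, and HFD-inulin array 3 lay apart from HFD-inulin arrays 1 and 2. Class II genes, which present extracellular peptides on professional antigen-presenting cells, had the lower mean in 9 of 10 (median difference -0.03). H2-Ab1 had a difference of -0.39, H2-Eb1 of -0.27 and H2-DMa of -0.08, and the list averaged -0.19, -0.25 and 0.13 in HFD-inulin livers, against 0.08, -0.12 and 0.05 in HFD livers. A difference between these lists and the class I genes was not tested.

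The regulators showed no common direction. Among interferon gamma receptor and signalling genes 7 of 10 had the higher mean in HFD-inulin (median difference 0.06), and 0 passed in limma before adjustment. Ifng itself was below the median probe set, at 0.64, 0.85 and 0.85 in HFD-inulin livers, against 0.66, 0.73 and 0.64 in HFD livers. Ifngr1, which encodes the ligand-binding chain of its receptor, had a difference of 0.21 and Ifnar1, of the type I interferon receptor, one of 0.15. Among transcription factors listed for class I promoters 5 of 13 had the higher mean (median difference -0.03). Atf1, a factor of the cAMP response element family, had a difference of 0.17 without overlap, Irf8, an interferon regulatory factor of leukocytes, one of -0.17 and Rela, the p65 subunit of NF-kappa B, one of -0.25 (limma adjusted p = 0.902 for each).

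Markers of other liver cells also had mostly lower means in HFD-inulin, and their part in the class I result was not tested. In whole liver, fewer cells of a type and less RNA per cell cannot be told apart. Ptprc, the pan-leukocyte marker CD45, measured 1.86, 1.89 and 2.09 in HFD-inulin livers, against 2.20, 2.13 and 2.21 in HFD livers, without overlap (difference -0.24, limma adjusted p = 0.902). Kupffer cell and macrophage markers were lower in 7 of 9, with list means of 4.79 to 4.96 in HFD-inulin and 4.95 to 5.10 in HFD arrays, although Clec4f, which marks Kupffer cells, differed by 0.03 and Cd5l by -0.18. Sinusoidal endothelial markers were lower in 5 of 6 (4.54 to 4.60 in HFD-inulin, 4.60 to 4.76 in HFD), with Clec4g at 0.23 and Kdr at -0.17. B cell markers were lower in 5 of 5 (1.60 to 1.88 in HFD-inulin, 1.81 to 2.22 in HFD), with Ighm at -1.02 and Pax5 at -0.04.

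The other leukocyte lists had low signals. T and NK cell markers were lower in 9 of 12 (1.40 to 1.44 in HFD-inulin, 1.41 to 1.49 in HFD), with 3 at or below the median probe set (1.22), Nkg7 at -0.15 and Cd3e at -0.04. Dendritic cell markers were lower in 5 of 6 (1.21 to 1.298 in HFD-inulin, 1.24 to 1.35 in HFD), with Itgax at -0.06 and Zbtb46 at 0.02. Neutrophil markers were lower in 4 of 8 (1.33 to 1.72 in HFD-inulin, 1.27 to 1.40 in HFD), with Ly6g at 0.01 and Camp at -0.09. Hepatocyte markers were lower in 6 of 8 (9.88 to 10.04 in HFD-inulin, 10.12 to 10.24 in HFD), with Alb at -0.10 and Ahsg, the fetuin-A gene, at 0.08. Over the 8 marker lists 42 of 55 genes had lower means in HFD-inulin, and 0 passed an adjusted p of 0.05 in limma. Before adjustment 7 of the 55 (12.7%) passed the 0.05 threshold, all lower, against 2.64% of all probe sets lower and 5.15% in either direction. Hepatocyte markers gave 3 of these, Kupffer cell and macrophage markers 2, sinusoidal endothelial markers 1 and Ptprc 1. The T and NK cell, B cell, dendritic cell and neutrophil lists gave 0.

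The genes closest to the class I profile were found by their distance from the mean centred profile of the 9 genes over the 6 arrays. They were Nkd1, an antagonist of WNT signalling (root mean square distance 0.008 log2 units), Col5a3, a collagen V chain (0.014), Hspg2, the basement membrane proteoglycan perlecan (0.015), Aqp7, a glycerol channel (0.015), and Unc119 (0.018). Their differences ran from -0.14 (Col5a3) to -0.11 (Hspg2). The profile was shallow (root mean square 0.09), so a gene with no change over the 6 arrays also lies within 0.1 of it. Of 19924 genes compared, 5473 lay within 0.1, a count that can include such flat genes. Closeness of this degree is thus common on these arrays and does not measure a shared pattern. The 9 genes themselves lay at 0.02 (H2-D1) to 0.08 (H2-Q4) from their own mean profile.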

How the data were processed

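Liver RNA of 6 male mice was hybridised to 1 Affymetrix array each, 3 per group. The values are log2 signals deposited by the authors for 65956 probe sets. The submitters' processing notes name Affymetrix Expression Console 1.0. The log base was inferred from the range of values. No source used here gives the summarization, background correction, build or filters. GEO's platform annotation, updated through RefSeq (GRCm38.p6), gave 31280 probe sets 1 symbol and 1470 several, and 33206 were not listed. For each gene the probe set with the highest mean was kept.

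HFD-inulin was compared with HFD by limma 3.58.1 (R 4.3.3, lmFit and eBayes, two-sided) over all probe sets, with no filter or covariate and Benjamini-Hochberg adjustment at 0.05, after a check on simulated data. Alternatives were quantile normalization, median centring, a filter on dim probe sets, another variance prior, array weights, ordinary least squares, the replicate number or the array split as a block, each array left out, and other choices of probe set. Named genes were all members, up to 3 genes of each pathway list by smallest p, up to 2 of each marker list by level, and the 5 nearest to the members' profile. The Nlrc5 probe set carries several names and is not analysed here. Members, lists and motifs were chosen with earlier results of these data known.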

Additional observations from a re-analysis of the deposited data

How the results depend on the processing

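No member passed an adjusted p of 0.05 under any of the 14 alternative fits, and the smallest adjusted p of any member was 0.290 (H2-Q4). Over all probe sets the count stayed at 0 except for 4 with a trended and robust variance prior. H2-K1, H2-D1, H2-Q4, B2m, Tap1, Tap2, Tapbp and Psmb8 kept a lower mean in all 14 fits, but not its size: with an array left out H2-K1 ran from -0.28 to -0.11, B2m from -0.20 to -0.06, Psmb8 from -0.20 to -0.07, Tap1 from -0.07 to -0.0055 and Tap2 from -0.11 to -0.0035, and H2-D1 was at -0.25 after quantile normalization. Psmb9 was at 0.0024 after median centring and 0.00032 after quantile normalization, and ran from -0.10 to 0.010 as each array was left out. The median over the members was -0.10 to -0.20 with an array left out, -0.10 after median centring, -0.15 after quantile normalization, -0.12 with the array split as a block and, in a comparison added after the data were seen, -0.0061 within HFD-inulin array 3 against HFD arrays 2 and 3. The count of members under an unadjusted p of 0.05 was 2 at first, 3 after quantile normalization and without HFD-inulin array 3, and 0 when any other array was left out. It was also 0 with the dim probe sets left out, with median centring, with the trended prior and with the array split as a block, and 1 with ordinary least squares. Over all probe sets that count was 3399, and 1873 with dim probe sets left out, 2100 without HFD array 2, 2218 without HFD array 3 and 6525 without HFD-inulin array 3. With the replicate number as a replicate block the members' median was -0.13 and 0 members lay under an unadjusted p of 0.05. The labels state no link between samples with the same number. Their deviations correlated at 0.26, -0.28 and 0.40, and HFD-inulin array 3 with HFD array 2 at 0.42. With 3 arrays a group these values cannot decide whether the numbers mark pairs. Choosing another probe set per gene changes nothing, since each member has 1. The cause of these changes was not tested. Psmb9 had the lowest mean signal of the 9 genes, at 2.43 against a median probe set of 1.22.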

Other observations

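For 7 of the 9 class I genes, the difference had the opposite sign to the median of genes at similar signal. Of 2106 genes with a mean log2 signal of 6 or more, 32.2% had a lower mean in HFD-inulin, with a median difference of 0.13. B2m, H2-K1 and H2-D1, which lie in that range, had differences of -0.14, -0.20 and -0.12. The class I genes were not alone in this: hepatocyte markers, at a median level of 10.2, were lower in 6 of 8 (median difference -0.17). Of 4035 genes between 4 and 6, 37.4% were lower, with a median of 0.06, while Tapbp, H2-Q4, Tap1 and Tap2 had differences of -0.17, -0.24, -0.04 and -0.05. Tap2, at a mean of 4.02, lies at the edge of that range, so the count of 7 rests on where the ranges are cut. Of 8137 genes between 2 and 4, where Psmb8 (-0.13) and Psmb9 (-0.03) lie, 51.4% were lower, with a median of -0.0034, so no opposite sign was seen there. This was seen after the values were known and was not tested.

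H2-Q10, a secreted class I heavy chain made by mouse liver, differed by -0.15 (limma adjusted p = 0.917), and Cd1d1, which presents lipids to NKT cells, by 0.11. Calr and Pdia3, which stand with tapasin in the peptide loading complex, differed by 0.47 each (limma adjusted p = 0.909 for Calr and 0.905 for Pdia3). Both were highest in HFD-inulin array 2 and lowest in HFD-inulin array 3. These 4 genes were named after their values were seen.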
